A study of Mus musculus with 16 samples.

Results

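The genes described here are those of the mouse mitochondrial genome, as measured by RNA-seq in primary mammary tumors of mice with and without a gene trap in *Resf1*. They were taken as every row of the expression table whose gene symbol starts with mt-, which gave 15 of 23609 rows and used no measured value. These are the 2 mitochondrial ribosomal RNA (rRNA) genes and all 13 protein-coding genes. The mitochondrial genome also carries 22 transfer RNA (tRNA) genes, and 0 of these 22 had a row in the table. Their transcripts are 59 to 75 bases long in the GENCODE vM21 annotation, and among the 22899 rows with a length there, none has a longest transcript under 121 bases.

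The mitochondrial genome is a small circle of DNA that is kept in many copies per cell. Each of its strands is transcribed by the polymerase *Polrmt* into long RNAs that span many genes, and these are cut, mostly at the tRNAs between the genes, into rRNAs, mRNAs and tRNAs. The mRNAs encode core subunits of complexes I, III, IV and V of oxidative phosphorylation, and the rRNAs are built into the mitochondrial ribosome that translates them. Of the 15 genes measured, 14 belong to the heavy-strand transcript and 1, *mt-Nd6*, to the light-strand transcript.

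All animals carried PyMT, the polyoma middle T antigen, a tumor-inducing protein whose transgene is driven in the mammary epithelium by the MMTV promoter. The wildtype group holds wildtype MMTV-PyMT animals, and the gene trap group holds MMTV-PyMT/*Resf1* +/- animals, in which 1 allele of *Resf1* carries a lentiviral gene trap in its first exon that expresses an EGFP-cre fusion. The groups are littermates from a cross of a single C57BL/6-derived gene trap line with FVB/MMTV-PyMT mice. Ages are not given in the labels, and which parent line the mothers came from, and with them the mitochondrial DNA, is not given in the sources used here. The labels list 16 tumors, 8 per group, and columns of the table could be matched to 10 of them, 5 in each group.

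The values are estimated counts per gene that had been normalized between tumors by median ratio before deposition, so they are called normalized values below and the sequencing depth is unknown. Their totals ranged from 31995078 to 42153593 per tumor, with the highest total in gene trap replicate 2. That tumor stood apart from the others in many of the values below, and the comparisons of the mitochondrial genes between groups are therefore given with and without it. Outside the mitochondrial genes, the summed value of *Rpph1* and *Rmrp*, the short nuclear-encoded RNAs of the nuclease complexes RNase P and RNase MRP, was 1695484 in that tumor and 156376 to 604646 in the others. These 2 were the RNAs measured of 14 listed short structured RNAs. *Rmrp* enters the sum as 2 rows with different gene IDs, at 621097 and 150865 in gene trap replicate 2. *Resf1* was 4099 ± 400 (SD, n = 5) in the wildtype group and 3516 ± 361 (SD, n = 5) in the gene trap group, with overlapping values and a log2 fold change of -0.22 (limma, unadjusted p = 0.0313, adjusted p = 0.9997). Without gene trap replicate 2 it was -0.17 (limma, unadjusted p = 0.0684). The tissue label was checked with 7 epithelial markers such as *Epcam* and *Krt8*, of which 7 were measured and which summed to 104223 in gene trap replicate 2 and to between 76019 and 100141 in the others.

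Several of the 15 genes share sequence with each other or with copies in the nuclear genome, and the sequences that matter for reading their values are shown first. The sequences are those of the GENCODE vM21 transcripts, on the coding strand and read in the direction of translation. The end of *mt-Atp8* and the start of *mt-Atp6* are the same 43 bases of DNA, read in different frames. Capitals mark the start codon of *mt-Atp6* and the last 3 bases of *mt-Atp8*, which are its stop codon.
mt-Atp8 and mt-Atp6 shared bases: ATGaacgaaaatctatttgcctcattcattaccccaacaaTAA
The genes *mt-Nd4l* and *mt-Nd4* share 7 bases in the same way, which are in capitals here.
mt-Nd4l into mt-Nd4: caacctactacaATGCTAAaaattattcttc

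Copies of mitochondrial DNA in the nuclear genome were found by BLAST of the transcripts against each other, with at least 95% identity over at least 80% of the copy. The table held 11 such copies, of 9 of the 13 protein-coding genes, with 7 on chromosome 1, 3 on chromosome 2 and 1 on chromosome 13. No copy of an rRNA gene met this rule. Over the aligned bases *Gm28661* was identical to *mt-Co2* (681 bases), *Gm10925* to *mt-Atp6* (678 bases) and *Gm28437* to *mt-Co3* (783 bases). The first 30 bases of each pair show this.
mt-Co2: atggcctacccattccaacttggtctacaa
Gm28661: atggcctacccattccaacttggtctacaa
mt-Atp6: atgaacgaaaatctatttgcctcattcatt
Gm10925: atgaacgaaaatctatttgcctcattcatt
mt-Co3: atgacccaccaaactcatgcatatcacata
Gm28437: atgacccaccaaactcatgcatatcacata
*Gm10222* was likewise identical to *mt-Nd4l* over 294 bases, and *Gm28439* to *mt-Nd4* over 876 bases. A further pair of copies differed from their genes at a single base each. *Gm28438* differed from *mt-Nd3* by T3C over 345 bases, and *Gm29216* from *mt-Co1* by A1066T over 483 bases, with positions counted from the first base of the mitochondrial gene and its base given first. The differing base is in capitals, and the *mt-Co1* stretch starts at base 1063.
mt-Nd3: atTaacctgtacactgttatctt
Gm28438: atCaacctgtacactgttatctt
mt-Co1: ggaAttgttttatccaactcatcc
Gm29216: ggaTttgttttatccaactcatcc
The other 4 copies were 95.2% to 97.6% identical. A read from identical bases can be given to a gene or to its copy only by a rule of the counting software, and that rule is not given in the sources used here.

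Some of the mitochondrial genes were among the most abundant rows of the table. By mean normalized value over the 10 tumors, 3 of the 15 were among the 20 highest rows, *mt-Rnr2* at rank 5, *mt-Co1* at rank 9 and *mt-Co3* at rank 19. The lowest were *mt-Nd6* at rank 5131 and *mt-Nd4l* at rank 9825. Together the 15 genes made up 2.38% ± 0.183 (SD, n = 5) of the column total in the wildtype group and 2.45% ± 0.342 (SD, n = 5) in the gene trap group. The rRNA genes and the mRNA genes contributed about equally to this, with a ratio of rRNA to mRNA of 0.881 ± 0.121 (SD, n = 5) in the wildtype group and 0.936 ± 0.190 (SD, n = 5) in the gene trap group. In gene trap replicate 2 the ratio was 1.26, above the range of 0.714 to 1.01 in the others. Any removal of rRNA before sequencing would bear on this ratio and on the rRNA values below, and it was not examined.

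Levels of single genes were next compared as normalized values per kilobase of the GENCODE vM21 transcript, averaged over the 10 tumors. The ranks, shares and ratios in other paragraphs are of values not scaled by length, unless given per kilobase. The large-subunit rRNA gene *mt-Rnr2* was highest at 237805 per kilobase, 7.03 times the level of the small-subunit rRNA gene *mt-Rnr1*, which lies just before it in the genome and reached 33821. The complex IV (cytochrome c oxidase) subunits followed, with 151329 for *mt-Co1*, 104713 for *mt-Co3* and 57306 for *mt-Co2*. A middle group held *mt-Nd1* with 23080, *mt-Nd3* with 21250, *mt-Cytb* of complex III with 20482, *mt-Atp6* with 17457 and *mt-Atp8* with 14588 per kilobase. The lowest levels were those of the other complex I (NADH dehydrogenase) subunits, from 5631 per kilobase for *mt-Nd4* through 4042 for *mt-Nd2*, 3910 for *mt-Nd5* and 2566 for the light-strand gene *mt-Nd6* to 1439 for *mt-Nd4l*. The level of *mt-Co1* was 59.0 times that of *mt-Nd6* and 105 times that of *mt-Nd4l*.

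This order was nearly the same in each tumor. Between neighbours in the order, the higher gene was higher in 10 of 10 tumors except for 4 pairs. It held in 9 tumors for *mt-Co2* over *mt-Rnr1*, in 9 for *mt-Nd1* over *mt-Nd3* and in 8 for *mt-Nd2* over *mt-Nd5*. The gene *mt-Nd3* was above *mt-Cytb* in only 1 tumor, gene trap replicate 2, which set its mean. The pairs *mt-Nd4l* and *mt-Nd4* and *mt-Atp8* and *mt-Atp6* are each known to stay joined in a single mRNA. Per kilobase, *mt-Nd4* was 3.91 times *mt-Nd4l*, while *mt-Atp6* was 1.2 times *mt-Atp8*. This contrast depended on the nuclear copies. With the copies added, *mt-Nd4* was 5811 and *mt-Nd4l* 2347 per kilobase. In the other pair *mt-Atp6* was then 32104, and *mt-Atp8*, for which no copy met the rule, stayed at 14588. That pair thus sets a gene with its copy against a gene alone, and only annotated transcripts were searched for copies.

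**Figure D1:**
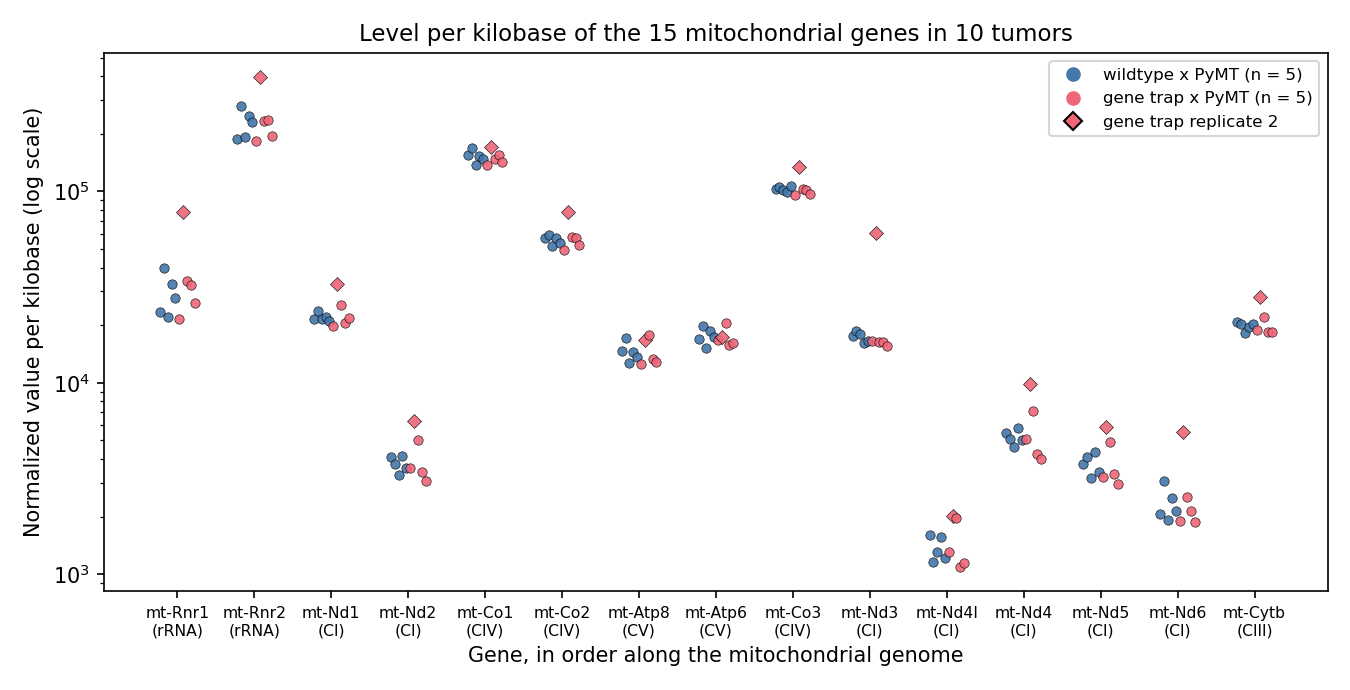
Normalized value per kilobase of transcript (log scale) for the 15 mitochondrial genes in their order along the genome, with the complex of each protein (CI to CV) below its name; each point is a tumor, blue wildtype and red gene trap, and the diamond is gene trap replicate 2. The rRNA gene mt-Rnr2 and the 3 complex IV genes lie above most others, and the diamond lies above all other tumors for 13 of the 15 genes. The values are not shares of the column total, which was highest in that tumor, and the count does not hold for such shares.

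Part of the order depended on the nuclear copies. When each gene's value was summed with those of its copies, *mt-Co3* rose from 104713 to 173771 per kilobase and *mt-Co1* from 151329 to 157634, so that *mt-Co3* was above *mt-Co1* in 10 of 10 tumors, where without the copies *mt-Co1* was above *mt-Co3* in 10 of 10. Likewise *mt-Co2* went from 57306 to 113728, *mt-Atp6* from 17457 to 32104 and *mt-Nd3* from 21250 to 32151 per kilobase. The share that a copy held differed between copies. In the tumors other than gene trap replicate 2, *Gm28661* held 47.1% to 49.5% of the summed value of the pair it forms with *mt-Co2*, *Gm10925* 42.1% to 46.9% of the pair with *mt-Atp6*, and *Gm28437* 37.4% to 41.7% of the pair with *mt-Co3*. *Gm13340*, which differs from *mt-Co1* at 37 bases, held 2.68% to 3.14%, and *Gm13341*, whose alignment with *mt-Co2* has 16 mismatched and 12 gapped positions, held 5.45% to 6.52%. *Gm28439*, which matches *mt-Nd4* exactly along 876 bases, held 2.65% to 4.16%, and *Gm28438*, with its single difference from *mt-Nd3*, 25.1% to 32.4%. Whether the copies themselves are transcribed was not tested.

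The rRNA genes varied together between tumors. For *mt-Rnr1* (ENSMUSG00000064337), the RNA of the small ribosomal subunit, the normalized values were 22491, 37771, 21163, 31325 and 26401 in wildtype replicates 1 to 5 and 20646, 74574, 32591, 31098 and 24929 in gene trap replicates 1 to 5. For *mt-Rnr2* (ENSMUSG00000064339), the RNA of the large subunit, they were 295363, 440774, 305243, 392555 and 365201 in wildtype and 290493, 622490, 370470, 373086 and 306407 in gene trap tumors. Each was highest in gene trap replicate 2 and lowest in gene trap replicate 1, and the groups overlapped. The 2 genes were correlated across all 10 tumors, with a Pearson's r of 0.98 (permutation p = 1e-05, the smallest that the 100000 resamples can give) and a Spearman's rho of 0.95 (permutation p = 8e-05). Adjusted over the 6 relations computed, these p-values were 6e-05 and 0.00048, and r was 0.94 without gene trap replicates 1 and 2, the 2 tumors farthest from the median.

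Not scaled by length, the ratio of *mt-Rnr2* to *mt-Rnr1* was 11.7 to 14.4 in wildtype tumors and 8.35 in gene trap replicate 2. In that tumor *mt-Rnr1* was 2.7 times and *mt-Rnr2* 1.78 times the mean of the other tumors. The short nuclear-encoded RNAs *Rpph1* and *Rmrp*, which are not mitochondrial genes, were highest in the same tumor, at 4.73 times the mean of the others. Across the 10 tumors their sum was correlated with *mt-Rnr1* (r = 0.86, permutation p = 0.00454, adjusted 0.0105; rho = 0.70, permutation p = 0.0304, adjusted 0.0456) and with *mt-Rnr2* (r = 0.82, permutation p = 0.00700, adjusted 0.0105; rho = 0.82, permutation p = 0.00587, adjusted 0.0176). Without gene trap replicates 1 and 2, r was 0.45 and 0.36, so these relations rest on those tumors. The same sum had an r of 0.82 and a rho of 0.71 with the summed complex IV mRNAs and an r of 0.71 and a rho of 0.35 with the summed complex I mRNAs other than *mt-Nd3*, and r was 0.35 and 0.04 without the same tumors. No p is given for the summed mitochondrial mRNAs, though these relations were counted in the adjustment. The part of these RNAs in the mitochondrial values was not tested.

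**Figure D2:**
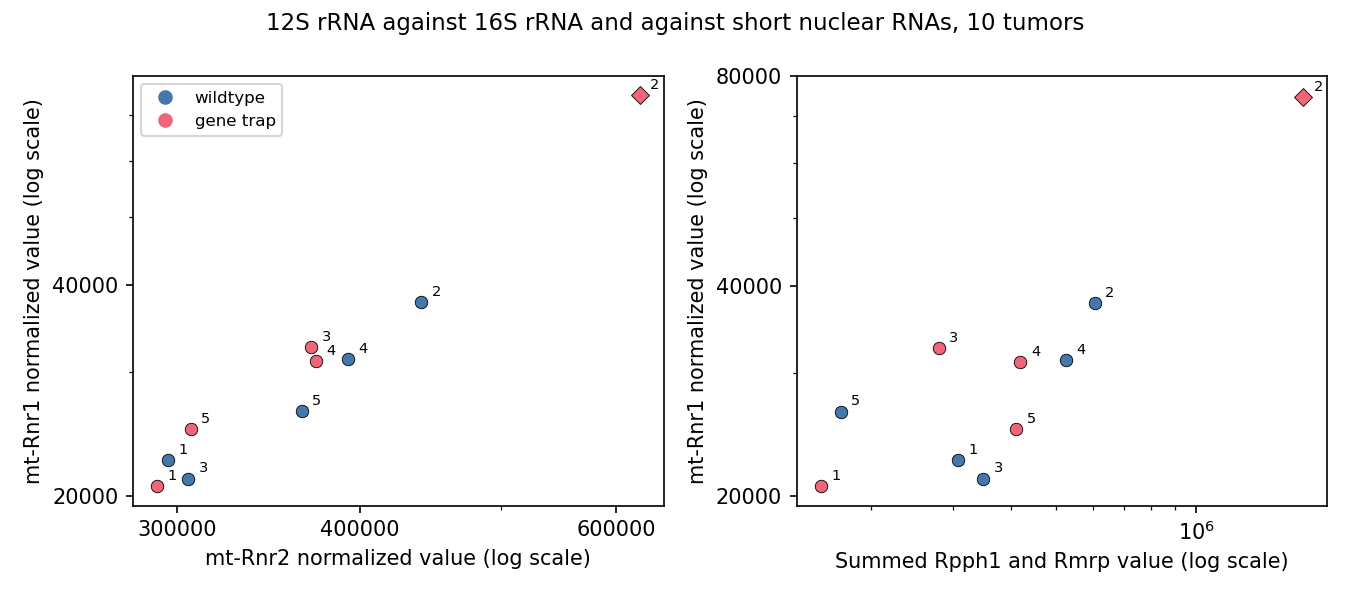
Normalized value of mt-Rnr1 (log scale) against mt-Rnr2 (left, log scale) and against the summed short nuclear RNAs Rpph1 and Rmrp (right, log scale) in 10 tumors, numbered by replicate, with wildtype in blue, gene trap in red and gene trap replicate 2 as a diamond. The rRNA genes follow a common line in all tumors (r = 0.98), while on the right the diamond, at 1695484, is far from the other tumors.

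Complex IV, which passes electrons to oxygen, has its 3 core subunits encoded by *mt-Co1*, *mt-Co2* and *mt-Co3*, and without gene trap replicate 2 these were, with *mt-Nd3*, the mRNA genes of the least spread. Their coefficients of variation between those tumors ranged from 3.36% for *mt-Co3* to 6.55% for *mt-Co1*. The complex III gene *mt-Cytb* was close to this, at 6.78%. Over all 10 tumors the range was 7.43% for *mt-Co1* to 13.8% for *mt-Co2*, with *mt-Atp6* at 9.98% and *mt-Nd3* the highest of the 15 genes at 65.6%. The normalized values of *mt-Co1* (ENSMUSG00000064351) were 240138, 260137, 212868, 235512 and 228709 in wildtype replicates 1 to 5 and 213043, 262110, 227237, 238989 and 219287 in gene trap replicates 1 to 5. Those of *mt-Co3* (ENSMUSG00000064358) were 80591, 82198, 79514, 77962 and 83760 in wildtype and 75361, 105315, 80262, 79725 and 76259 in gene trap tumors. In normalized values each gene was highest in gene trap replicate 2, by little for *mt-Co1* (1.14 times the mean of the others) and by more for *mt-Co3* (1.32 times) and *mt-Co2* (1.42 times). The column total was also highest in that tumor. As a share of it, the 3 genes together were 0.998% there, inside the range of 0.949% to 1.09% in the others. The values of *mt-Co2* (ENSMUSG00000064354) were 33608 to 40264 in the others and 53282 in that tumor.

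Complex IV genes made up 80.2% to 81.0% of the mRNA sum in the 5 wildtype tumors. The gene trap tumors spread more widely, with 80.5%, 75.8%, 77.8%, 82.4% and 81.3% in replicates 1 to 5. The lower shares of replicates 2 and 3 went with higher complex I values, described next.

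Complex I, which takes electrons from NADH, has 7 of its subunits encoded in the mitochondrial genome. The values of *mt-Nd4* (ENSMUSG00000064363) were 7501, 7036, 6388, 8023 and 6936 in wildtype replicates 1 to 5 and 7018, 13534, 9767, 5873 and 5513 in gene trap replicates 1 to 5. Gene trap replicates 2 and 3 were above all wildtype tumors, replicates 4 and 5 were below all of them, and replicate 1 was inside their range. The same 2 tumors were the highest, in that order, for *mt-Nd1* (ENSMUSG00000064341), *mt-Nd2* (ENSMUSG00000064345), *mt-Nd5* (ENSMUSG00000064367) and *mt-Nd4l* (ENSMUSG00000065947). Their ratios of gene trap replicate 2 to the mean of the others ranged from 1.47 for *mt-Nd4l* to 1.90 for *mt-Nd4*. As a share of the column total, the 7 genes together, *mt-Nd3* and *mt-Nd6* included, were 0.206% in that tumor and 0.118% to 0.171% in the others. Without gene trap replicate 2, the coefficients of variation were 15.6% to 20.9% for the 5 complex I genes other than *mt-Nd1* (7.83%) and *mt-Nd3* (5.69%).

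The complex I gene *mt-Nd3* (ENSMUSG00000064360) differed in pattern. Its values were 6109, 6462, 6250, 5647 and 5756 in wildtype replicates 1 to 5 and 5761, 21170, 5670, 5694 and 5431 in gene trap replicates 1 to 5. Gene trap replicate 2 was 3.61 times the mean of the others, the largest such ratio of the 15 genes, and gene trap replicate 3 was not raised. Its nuclear copy *Gm28438*, shown above, was 1992 to 2797 in the other tumors and 16385 in gene trap replicate 2, a ratio of 6.84. Gene and copy summed to 37555 in that tumor and to 7464 to 9047 in the others.

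The light-strand gene *mt-Nd6* (ENSMUSG00000064368), which encodes a further complex I subunit, was also set apart in gene trap replicate 2. Its values were 1076, 1585, 994, 1297 and 1115 in wildtype replicates 1 to 5 and 983, 2871, 1317, 1110 and 968 in gene trap replicates 1 to 5. Per 1000 of the summed heavy-strand mRNA value it was 2.42 to 3.37 in wildtype tumors, 5.2 in gene trap replicate 2 and 2.38 to 2.97 in the other gene trap tumors. After gene trap replicate 2, wildtype replicate 2 was the highest for *mt-Nd6*, as it was for each rRNA gene. The extremes were not the same for all genes: among the tumors other than gene trap replicate 2, gene trap replicate 3 was highest for 8 genes, wildtype replicate 2 for 6 and wildtype replicate 5 for 1.

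Complex III is represented by *mt-Cytb* (ENSMUSG00000064370), cytochrome b, with 20951 to 23781 in wildtype tumors and 21463, 32056, 25311, 21041 and 20975 in gene trap replicates 1 to 5. Complex V, the ATP synthase, is represented by *mt-Atp6* (ENSMUSG00000064357) and *mt-Atp8* (ENSMUSG00000064356). The values of *mt-Atp6* were 11573, 13511, 10321, 12660 and 11864 in wildtype and 11370, 11877, 13990, 10673 and 11041 in gene trap tumors. Gene trap replicate 2 was 0.999 times the mean of the others for *mt-Atp6* and 1.17 times for *mt-Atp8*, and gene trap replicate 3 was the highest tumor for both, which are the 2 genes for which gene trap replicate 2 was not the highest. The copy *Gm10925* behaved otherwise, with 8390 to 10599 in the other tumors and 14522 in gene trap replicate 2. As a result *Gm10925* held 55.0% of the pair with *mt-Atp6* in that tumor, and the pair summed was 1.24 times the mean of the others. As shares of the column total, *mt-Cytb* was 0.0760% in gene trap replicate 2 and 0.0776% in gene trap replicate 3. The 2 complex V genes together were 0.0363% in gene trap replicate 2 and 0.0374% to 0.0540% in the others.

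Other copies also shifted in gene trap replicate 2 relative to their genes. *Gm13340* was 0.507 times and *Gm13341* 0.68 times the mean of the other tumors there, while *mt-Co1* and *mt-Co2* were 1.14 and 1.42 times. *Gm28439*, identical to part of *mt-Nd4*, was also lower there, at 0.654 times, while *mt-Nd4* was 1.9 times. The other copies were above the mean of the other tumors there. *Gm28437*, identical to *mt-Co3*, was 1.59 times and *Gm28661*, identical to *mt-Co2*, 1.40 times the mean of the others. *Gm10222*, identical to *mt-Nd4l*, was 2.16 times, and the diverged copies *Gm13339* of *mt-Nd2* and *Gm4076* of *mt-Nd5* were 1.37 and 1.28 times. Both identical and diverged copies were thus found on either side of that mean.

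**Figure D3:**
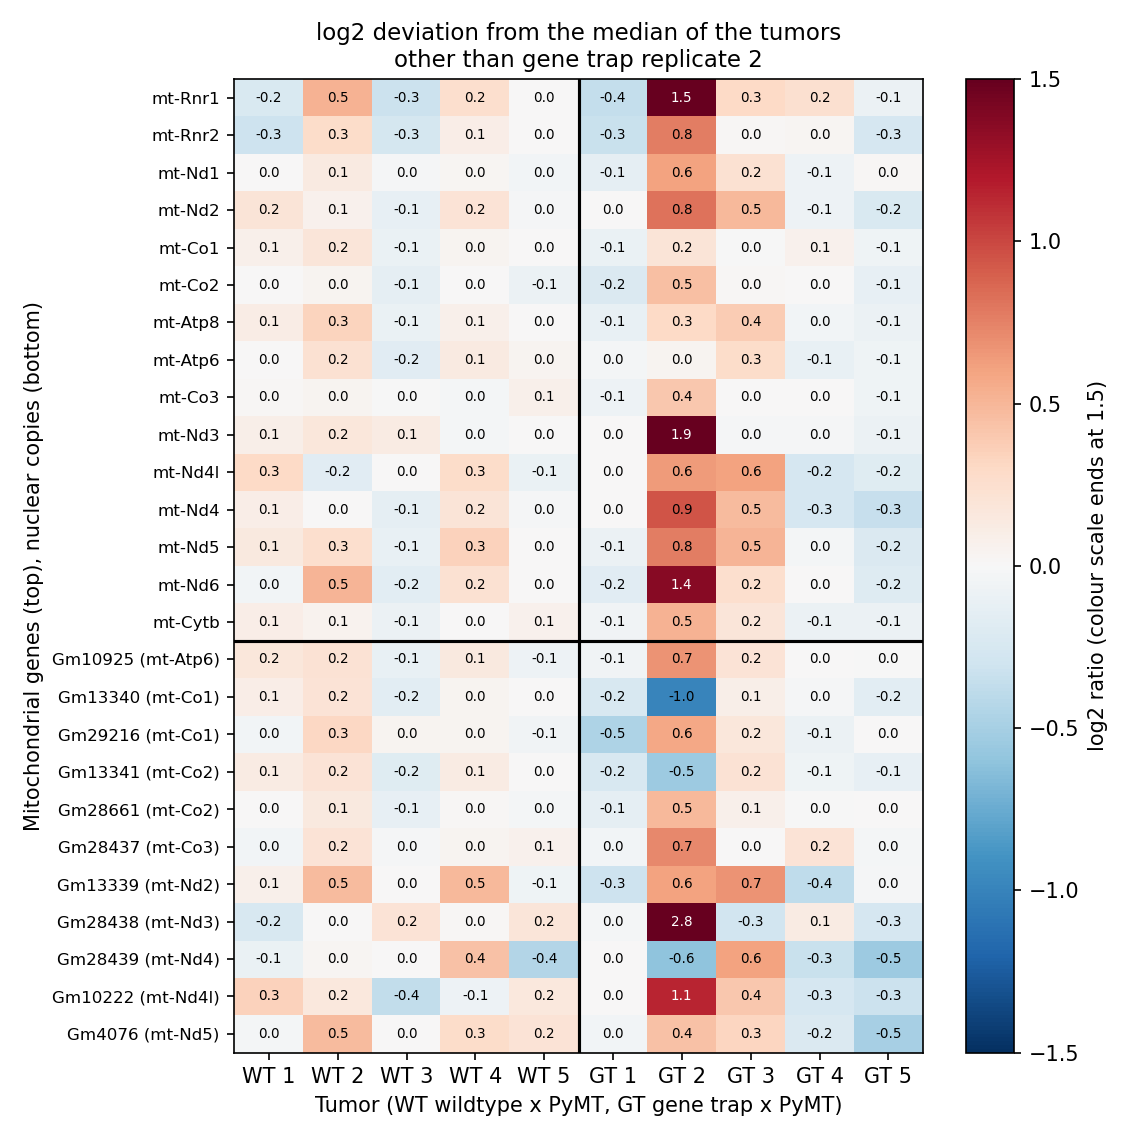
log2 ratio of each tumor's normalized value to the median of the tumors other than gene trap replicate 2, for the 15 mitochondrial genes (top) and the 11 nuclear copies with the gene each resembles (bottom); columns are tumors, wildtype (WT) 1 to 5 and gene trap (GT) 1 to 5, red is higher and blue lower, and the colour scale ends at 1.5. Gene trap replicate 2 is red for most rows, most of all for mt-Nd3 and Gm28438, and blue for Gm13340, Gm13341 and Gm28439.

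The study's comparison, gene trap against wildtype tumors, asks whether expression differs when *Resf1* is reduced. For the mitochondrial genes no difference beyond the spread between tumors was detected. Tested with limma over the 21034 genes with a mean of at least 10, 0 of the 15 had an adjusted p under 0.05, beside 0 of all genes (percent called 0), and each of the 15 had an adjusted p of 0.9997. At an unadjusted p under 0.05, 0 of the 15 were counted beside 2.28% of all genes (479 genes). The unadjusted limma p of the 15 ranged from 0.365 to 0.982. The groups overlapped for all 15 genes, beside 0.528% of all genes whose groups did not overlap.

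By sign alone 13 of the 15 were higher in gene trap tumors, and their median log2 fold change was 0.09, beside 51.4% of all genes and a median of 0.00. The count was 12 when columns were scaled to equal totals, where *mt-Atp8* changed sign, and it was set by a single tumor. Without gene trap replicate 2, all 15 were lower in gene trap tumors and their median was -0.05, beside 49.9% of all genes. The largest fold changes were those of *mt-Nd3*, with 0.28 (standard error 0.32, 95% interval -0.41 to 0.97), and *mt-Rnr1*, with 0.28 (standard error 0.29, 95% interval -0.36 to 0.92). Without gene trap replicate 2 these became -0.10 for *mt-Nd3* and -0.02 for *mt-Rnr1*. For *mt-Co1* the log2 fold change was -0.02 (95% interval -0.32 to 0.27) and for *mt-Atp6* -0.02 (95% interval -0.23 to 0.18). The intervals allow differences of either sign, and their width is that of 5 tumors per group.

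The same holds without gene trap replicate 2, where the intervals were narrower for all genes except *mt-Atp6* and *mt-Atp8*. The narrowest was that of *mt-Nd3*, from -0.23 to 0.03, and the widest that of *mt-Rnr1*, from -0.42 to 0.39. The exact permutation test over the 252 arrangements of the tumors, two-sided, gave p between 0.532 and 0.984 for the 15 genes.

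**Figure D4:**
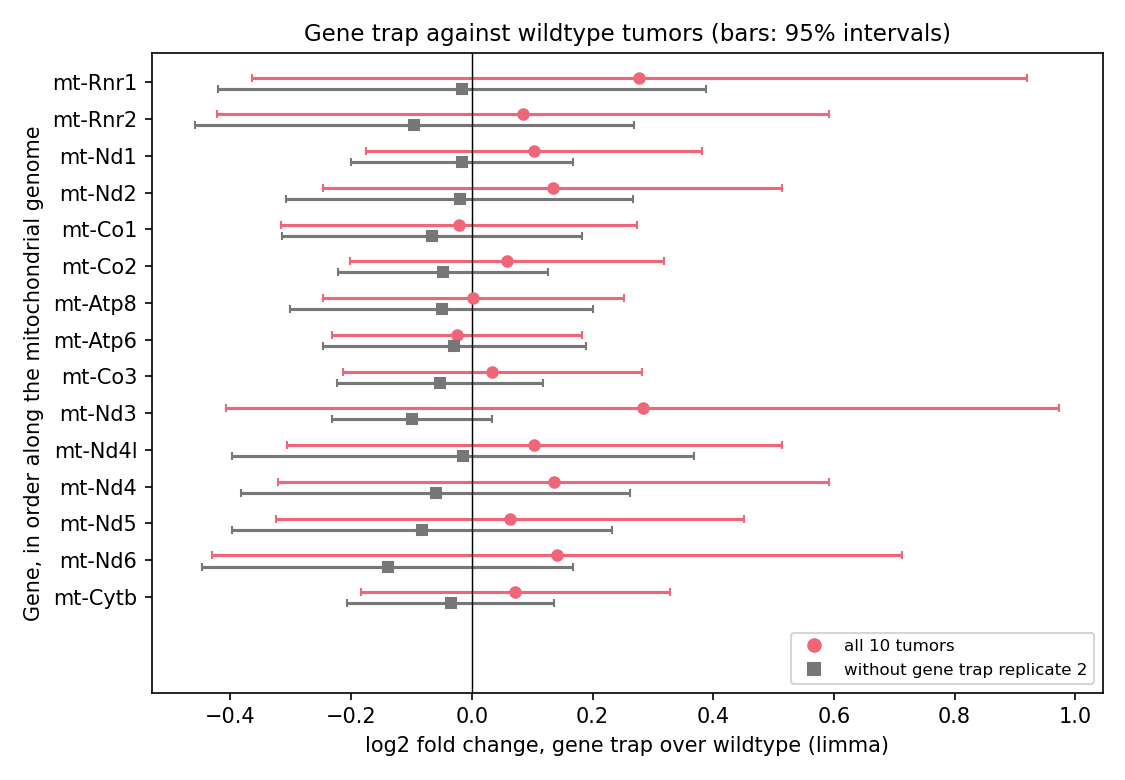
limma log2 fold change of gene trap over wildtype tumors for the 15 mitochondrial genes with 95% intervals as bars, over all 10 tumors (red circles, 5 per group) and without gene trap replicate 2 (grey squares, 5 wildtype and 4 gene trap). Every bar crosses 0, and the grey squares all lie below 0 where 13 of the red circles lie above it.

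As shares of the column total, the classes overlapped between the groups as well. The rRNA genes took 0.952%, 1.29%, 0.953%, 1.16% and 1.22% in wildtype replicates 1 to 5 and 0.972%, 1.65%, 1.24%, 1.13% and 0.949% in gene trap replicates 1 to 5. The means differed by 0.0742 percentage points (standard error 0.145) and, without gene trap replicate 2, by -0.0423. The mRNA genes took 1.27% ± 0.0736 (SD, n = 5) in the wildtype group and 1.26% ± 0.0793 (SD, n = 5) in the gene trap group, a difference of -0.00339 percentage points (standard error 0.0484). The mRNA share of gene trap replicate 2, at 1.32%, was inside the range of the others, 1.17% to 1.37%, while its rRNA share was above theirs. Its summed normalized mRNA value, 554995, was above the 400092 to 472413 of the others, as its column total was the highest. These shares leave out the nuclear copies, which summed to 171818 in that tumor and to between 101469 and 123878 in the others. These sums over genes were given no test.

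**Figure D5:**
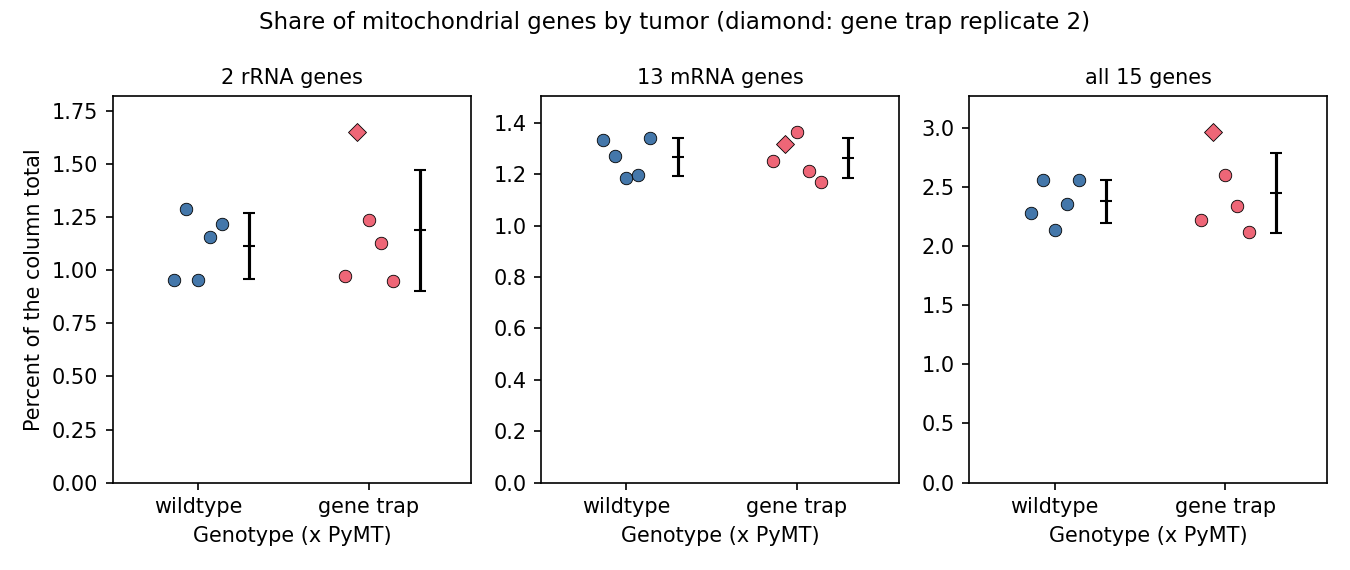
Percent of the column total taken by the 2 rRNA genes, the 13 mRNA genes and all 15 genes, per tumor, with wildtype in blue, gene trap in red, gene trap replicate 2 as a diamond, and the mean with its SD (n = 5 per group) as a bar beside each group. Nuclear copies are not included. The groups overlap in each panel, and the diamond is apart for the rRNA genes (1.65%) and not for the mRNA genes (1.32%).

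Genes of the nucleus run the mitochondrial genome, and these were examined in 6 lists of 82 genes in all, of which 81 were tested. At an unadjusted p under 0.05 in limma, 0 of the 81 were counted in either direction, beside 1.32% of all genes higher and 0.956% lower. The medians of the lists were 0.07 for transcription, 0.02 for replication and the nucleoid, 0.02 for RNA processing, 0.00 for RNA stability and decay, 0.04 for rRNA and tRNA modification and 0.02 for nuclear regulators, on the log2 scale. The polymerase gene *Polrmt* was 803 ± 84.1 (SD, n = 5) in the wildtype group and 842 ± 112 (SD, n = 5) in the gene trap group, with a log2 fold change of 0.06, and of 0.0039 without gene trap replicate 2. For *Tfam*, which packs the mitochondrial DNA and starts transcription, it was 0.04, for the initiation factor *Tfb2m* 0.01 and for the elongation factor *Tefm* 0.07. For *Polg*, the replicating polymerase, it was 0.06 and for the helicase *Twnk* 0.11. Without gene trap replicate 2 these were 0.05 for *Tfam*, -0.08 for *Tfb2m*, 0.04 for *Tefm*, 0.07 for *Polg* and 0.05 for *Twnk*, and the medians of the 6 lists, in the order above, were 0.03, 0.02, 0.02, 0.02, 0.02 and -0.0048.

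The proteins of *Lrpprc* and *Slirp* form a complex that keeps mitochondrial mRNAs stable. For *Lrpprc* the log2 fold change was 0.04 (standard error 0.11), and for *Slirp* 0.30 (standard error 0.21, unadjusted p = 0.176). The values of *Slirp* were 871, 948, 915, 920 and 913 in wildtype replicates 1 to 5 and 991, 2157, 818, 1015 and 1001 in gene trap replicates 1 to 5. That tumor, replicate 2, again stood alone, and without it the log2 fold change was 0.06 for *Slirp* and 0.14 for *Lrpprc* (limma, unadjusted p = 0.0891). In the same tumor *Lrpprc* was 1986, the lowest of the 10, against 2379 to 3059 in the others.

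Cell types rich in mitochondria could add to these values, and their markers varied between tumors. The 7 skeletal muscle markers measured of 10 listed, such as *Ckm* and *Acta1*, summed to between 885 and 14272, highest in wildtype replicate 5, and the 4 brown adipocyte markers measured of 6 to between 418 and 979, also highest in wildtype replicate 5. Gene trap replicate 2 was inside the range of the others for both, at 3762 and 871. For fibroblast markers the sums were 39061 to 120046 and for white and shared adipocyte markers 1614 to 10467, with gene trap replicate 2 at 62797 and 5741. Immune markers summed to between 9250 and 15492, with gene trap replicate 2 at 11301, and endothelial markers to between 1892 and 3920, with gene trap replicate 2 the lowest. Across these 6 marker lists 0 genes had an unadjusted p under 0.05 in limma, beside 2.28% of all genes. Of a further list of 4 cardiac or slow muscle markers, 1 was measured, *Tnnc1*, with low values of 3.69 to 31.8. It was 5.21 in gene trap replicate 2, and its log2 fold change was -0.89 (limma, unadjusted p = 0.0947). By sign, the 5 white and shared adipocyte, the 4 endothelial and 6 of the 7 immune markers measured were lower in gene trap tumors. The 6 fibroblast markers were higher, as were 5 of 7 skeletal muscle and 2 of 4 brown adipocyte markers, beside 51.4% of all genes. Nuclear-retained RNAs such as *Malat1* and *Neat1* summed to 1100217 in gene trap replicate 2 and to between 590607 and 899728 in the others, and of these *Kcnq1ot1* was the only listed gene outside the mitochondrial ones with an unadjusted p under 0.05 (limma log2 fold change 0.20, unadjusted p = 0.0355). In a tumor that is a mixture of cells, fewer cells of a type and less RNA per cell cannot be told apart, and the part of these cells and RNAs in the mitochondrial values was not tested.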

How the data were processed

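The authors deposited 1 table of estimated counts per gene for the mammary tumors, as a signal already scaled between tumors by the median ratio method. The submitters' processing notes name mm39, STAR 2.7.8a, Partek and DESeq2. The libraries were made from total RNA with a stranded TruSeq kit. The counter, annotation, strand setting and treatment of reads that match several places are not given in the sources used here. The form of the values was checked: the median ratio of each used column to the geometric mean was 1.005 to 1.006, and there were 0 zeros. The count test of the study needs raw counts and was replaced by limma.

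Of the table's 16 columns, 10 matched a tumor's label and 6, named by an animal's number, matched none and were not used. Each tumor was taken as 1 replicate. The labels do not state that each came from a different animal, so p-values measure the spread between these tumors. Symbols and transcript lengths came from GENCODE vM21 (on GRCm38), which gave both for 22899 of 23609 gene IDs. Coordinates are left out, since the files' build is mm39.

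The log2 of each value plus a pseudocount of 1 was taken. The 21034 genes with a mean of at least 10 were fitted with limma 3.58.1 (R 4.3.3), with a variance trend, genotype as the single factor, and Benjamini-Hochberg adjustment over all genes tested. Because of the pseudocount, changes of genes of low value are understated. For single genes an exact permutation test, two-sided, was run over the 252 arrangements of tumors. Correlations used 100000 resamples. Copies were found with BLAST 2.17.0 over at least 75 aligned bases. Figures were drawn with matplotlib 3.10.9 (Python 3.11.15). The fit was tested on simulated data.

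The mitochondrial genes and the lists were chosen with earlier results of these data known. All mitochondrial rRNA and mRNA genes are named. Of the lists of nuclear genes, Polrmt, Tfam, Tfb2m, Tefm, Lrpprc, Slirp, Polg and Twnk are named, with any of p under 0.05, and the copies were chosen by the BLAST rule. The alternatives were other filters, pseudocounts, scalings and weights, no trend, a block on the replicate number, leaving out each tumor, and nuclear copies summed with their genes.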

Additional observations from a re-analysis of the deposited data

Results flagged for a closer look

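Values of single tumors were compared with the rest of their group by Dixon's test, over 41 measures in 82 groups of 5 tumors. Of these, 11 had a tumor set apart from its group, where about 4.10 would be expected by chance if the measures were independent. They are not, since shares and ratios are built from the same genes, so this is no test of an excess over chance. Of the 11, 9 were from gene trap replicate 2. Among the mitochondrial genes these were *mt-Rnr1*, at 74574 where the rest of its group had 20646 to 32591, *mt-Rnr2*, at 622490 against 290493 to 373086, and *mt-Co3*, at 105315 against 75361 to 80262. The complex I genes *mt-Nd3*, at 21170 against 5431 to 5761, and *mt-Nd6*, at 2871 against 968 to 1317, were set apart as well. The log2 ratio of *mt-Nd6* to the heavy-strand mRNA sum was -7.59 in the same tumor and -8.71 to -8.40 in the other gene trap tumors.

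In that tumor the nuclear copies *Gm28437*, at 81464 against 47999 to 57108, and *Gm28438*, at 16385 against 1992 to 2653, and the RNA stability gene *Slirp*, at 2157 against 818 to 1015, also stood apart. The remaining 2 values came from a single library. In wildtype replicate 2, *Gm29216* was 3777 against 2926 to 3123 in the other wildtype tumors, and *Polrmt* was 948 against 733 to 793. What sets these tumors apart was not tested.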

How the results depend on the processing

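In 21 alternative limma fits 0 genes passed the adjusted threshold, mitochondrial genes and the nuclear lists included. At an unadjusted p under 0.05 the alternatives counted 305 to 692 genes, none of them mitochondrial and at most 2 of the nuclear lists. The smallest adjusted p of a mitochondrial gene over all fits was 0.978. The number of mitochondrial genes higher in gene trap tumors, 13 of 15, was 7 with weights per tumor, and between 0 (without gene trap replicate 2) and 15 (without wildtype replicate 2) when a tumor was left out. Some log2 fold changes of single genes changed sign. With equal column totals they became -0.025 for *mt-Atp8* and -0.014 for *Tfb2m*, and with equal totals of the other genes -0.024 for *mt-Atp8* and -0.013 for *Tfb2m*. With weights per tumor they became -0.046 for *mt-Rnr2*, -0.020 for *mt-Co2*, -0.0090 for *mt-Atp8*, 0.0016 for *mt-Atp6*, -0.029 for *mt-Co3*, -0.0098 for *mt-Nd3*, -0.021 for *mt-Nd5*, -0.050 for *mt-Nd6* and -0.077 for *Tfb2m*. Summing the nuclear copies, an alternative chosen after seeing the data, gave 0.034 for *mt-Atp6*. With each tumor left out in turn, the ranges were -0.066 to 0.015 for *mt-Co1*, -0.088 to 0.020 for *mt-Atp6*, -0.070 to 0.064 for *mt-Atp8*, -0.017 to 0.45 for *mt-Rnr1*, -0.095 to 0.18 for *mt-Rnr2*, -0.016 to 0.17 for *mt-Nd1* and -0.020 to 0.24 for *mt-Nd2*. They were -0.048 to 0.12 for *mt-Co2*, -0.053 to 0.068 for *mt-Co3*, -0.099 to 0.39 for *mt-Nd3*, -0.060 to 0.26 for *mt-Nd4*, -0.083 to 0.16 for *mt-Nd5*, -0.14 to 0.25 for *mt-Nd6*, -0.035 to 0.12 for *mt-Cytb* and -0.015 to 0.21 for *mt-Nd4l* for the remaining mitochondrial genes, and -0.082 to 0.070 for *Tfb2m* and -0.014 to 0.14 for *Lrpprc*. The cause of these changes was not tested. The median of all genes moved by at most 0.027 on the log2 scale under another scaling.

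The differences between groups in the share of the column total ranged, with each tumor left out, from -0.042 to 0.13 percentage points for rRNA, -0.029 to 0.020 for mRNA and -0.059 to 0.15 for all 15 genes. That of the log2 ratio of *mt-Nd6* to heavy-strand mRNA ranged from -0.084 to 0.20. The tRNA to mRNA ratio that had been planned was not run, since no tRNA gene has a row.

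Replicate numbers did not pair the tumors: tumors of the same number had correlated deviations of 0.103, -0.00305, -0.156, 0.149 and -0.142 for numbers 1 to 5. With the replicate number as a block, 0 genes passed the adjusted threshold, 426 had an unadjusted p under 0.05, 275 of them higher, and 13 mitochondrial genes were higher. The depth of each tumor is unknown, and the spread between 5 tumors per group sets what could be detected.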
